A study of Mus musculus with 8 samples.

Results

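Cnga1, Cngb1, Slc24a1, Gucy2e, Gucy2f, Guca1a, Guca1b, Rgs9, Rgs9bp, and Gnb5 encode the cyclic GMP channel, the exchanger, the cyclases, and the shut-off complex with which a rod turns light into an electrical signal and recovers from it. These 10 genes were chosen by symbol, with earlier results of these data known, by a rule that itself uses no measured value. All 10 were found among the 21828 genes of the tables. They were followed by RNA sequencing in 8 libraries of wild-type ICR mice, for which the labels name no transgene and no treatment. Whole retinas were taken at E15 and E18, and retinas of P2, P5, and P8 were pooled, dissociated, and sorted into cells with Cd73 on their surface (Cd73PC) and cells without it (Cd73NC). Cd73 is an enzyme encoded by Nt5e that marks cells committed to the rod fate. Each condition has 1 library and no replicates, so no difference below could be set against a replicate error and no test was run. The values are FPKM, which is a level relative to the length of the transcript and the mapped fragments of the library.

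In the dark, cyclic GMP holds the channel of the rod outer segment open, and sodium and calcium flow in. Light leads to the breakdown of cyclic GMP, the channel closes, and calcium falls because the exchanger goes on carrying it out. Low calcium lets the activating proteins stimulate the membrane guanylate cyclases, which restore cyclic GMP, while the complex of Rgs9, Gnb5, and Rgs9bp switches transducin off. Mutations in several of these genes cause retinal degeneration or slow recovery from light in humans and mice.

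The fractions matched their labels. Nt5e had an FPKM of 97.3, 131, and 124 in Cd73PC at P2, P5, and P8, and of 2.43, 31.4, and 9.38 in Cd73NC. Nrl, the factor that sets the rod fate, was at 984, 1317, and 1417 in Cd73PC and at 28.3, 277, and 107 in Cd73NC. Nr2e3, a rod nuclear receptor, was at 949.6, 1433, and 1140.3 in Cd73PC and at 7.63, 199.5, and 89.8 in Cd73NC. The Cd73NC library of P5 thus stood apart, with Nt5e at 24.0% of its Cd73PC level, against 2.50% at P2 and 7.55% at P8. Bipolar markers (8 genes) summed to 191, 457, and 2206 in Cd73NC and to 53.0, 87.8, and 259 in Cd73PC, and 6 Muller glia markers to between 609 and 1192 in Cd73NC and between 296 and 362 in Cd73PC. Ganglion cell markers (6 genes) fell from 638 in E15 whole retina to at most 8.66 in any sorted library, and the 4 horizontal cell markers reached at most 2.97 there. Hemoglobin and Alas2 transcripts, from red blood cells, summed at P5 to 2009 in Cd73NC and 1363 in Cd73PC, and at P8 to 7007 and 2764. Microglia markers (5 genes) summed at P2 to 18.9 in Cd73PC and 3.49 in Cd73NC, with 5 of 5 higher in Cd73PC past 1.5-fold, while at P5 and P8 0 were higher and 2 and 1 were lower. Their part in the P2 differences was not tested. In bulk samples of this kind, fewer cells of a type and less RNA per cell cannot be told apart.

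The promoters of these genes are shown first because several of them carry the core motif of Crx, the homeodomain factor of photoreceptors, which is TAATCC on either strand and reads GGATTA on the opposite strand. RefSeq promoters (GRCm38.p6) were held for 8 of the 10 genes. In the 250 bases before the start, 6 of these 8 contained the motif (Cnga1, Cngb1, Gucy2e, Gucy2f, Guca1a, and Gnb5), and Rgs9 and Slc24a1 did not. Over all 32851 promoters of the table the share was 6.25%. A second copy was present in Cngb1 and Gucy2f, against 0.295% of all promoters with at least 2. The sequences of 5 members run 5′ to 3′ on the minus strand, on which all 5 genes lie. Each was found at a single exact place in NCBI37/mm9, at chr5:73033992-73034241 for Cnga1, chr8:97830486-97830735 for Cngb1, chr11:69050525-69050774 for Gucy2e, chrX:138631480-138631729 for Gucy2f, and chr17:47537556-47537805 for Guca1a. Capitals mark the motif.
Cnga1: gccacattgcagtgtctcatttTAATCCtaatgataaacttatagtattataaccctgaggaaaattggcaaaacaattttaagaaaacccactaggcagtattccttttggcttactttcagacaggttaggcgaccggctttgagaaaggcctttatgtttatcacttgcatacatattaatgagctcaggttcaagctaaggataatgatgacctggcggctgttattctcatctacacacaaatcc
Cngb1: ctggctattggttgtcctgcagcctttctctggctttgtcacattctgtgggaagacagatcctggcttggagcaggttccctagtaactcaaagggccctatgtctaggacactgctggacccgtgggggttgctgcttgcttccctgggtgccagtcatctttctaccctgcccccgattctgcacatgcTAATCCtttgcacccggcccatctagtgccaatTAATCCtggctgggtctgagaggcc
Gucy2e: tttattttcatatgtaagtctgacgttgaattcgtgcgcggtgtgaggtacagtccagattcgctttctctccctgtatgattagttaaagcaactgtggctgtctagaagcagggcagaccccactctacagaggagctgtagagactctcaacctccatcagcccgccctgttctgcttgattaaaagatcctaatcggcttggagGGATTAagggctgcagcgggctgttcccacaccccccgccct
Gucy2f: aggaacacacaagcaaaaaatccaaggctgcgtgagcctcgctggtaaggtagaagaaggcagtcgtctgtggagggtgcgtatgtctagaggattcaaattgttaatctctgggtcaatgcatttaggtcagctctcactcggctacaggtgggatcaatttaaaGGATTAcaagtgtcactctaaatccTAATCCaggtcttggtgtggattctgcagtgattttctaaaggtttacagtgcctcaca
Guca1a: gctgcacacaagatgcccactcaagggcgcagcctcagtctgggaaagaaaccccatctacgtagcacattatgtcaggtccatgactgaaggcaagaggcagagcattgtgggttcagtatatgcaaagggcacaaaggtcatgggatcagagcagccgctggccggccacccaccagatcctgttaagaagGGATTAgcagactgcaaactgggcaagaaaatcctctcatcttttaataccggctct

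The motif lay within 85 bases of the start in Cngb1, Gucy2e, Gucy2f, and Guca1a. Its first base was 58 and 25 bases before the start in Cngb1, 42 in Gucy2e, 84 and 59 in Gucy2f, and 57 in Guca1a, but 228 in Cnga1. In Gnb5 it ended at the last base before the RefSeq start, which is 5107 bases from the start of the Gnb5 row in the tables, so this window does not adjoin the start of that row. Of the other rod cascade genes with a promoter in the table, 2 of 5 held the motif (Gngt1 and Sag). So did 1 of 5 cone cascade genes (Gnat2), 3 of 7 bipolar markers (Cabp5, Isl1, and Trpm1), and 0 of 5 relatives of Rgs9 and its partners. Among other genes of cyclic GMP and calcium handling, 2 of 15 held it, and 1 of the 3 disc rim genes Prph2, Rom1, and Abca4 did. In these lists a gene was counted if any of its promoters held the motif, while the share of 6.25% is per promoter. A match in this window describes the letters only, and binding was not measured in these libraries.

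**Figure D1:**
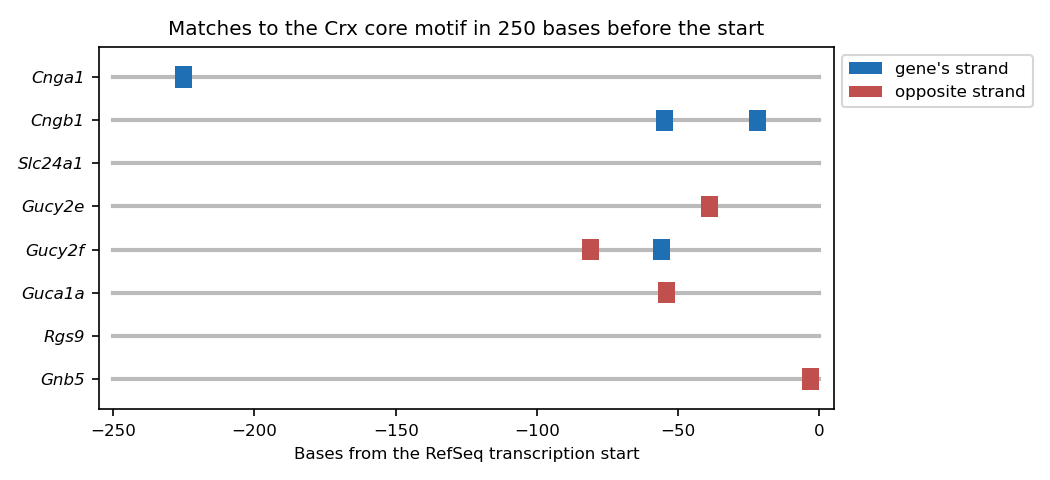
Position of each match to the Crx core motif (6 bases) in the 250 bases before the RefSeq start, for the 8 genes with a promoter; the x axis is the distance from the start in bases. Matches on the gene's strand and on the opposite strand have separate colors, and Cngb1 and Gucy2f hold 2 each while Rgs9 and Slc24a1 hold none.

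Before birth, most of these genes were barely detected. At E15 only Gnb5 and Rgs9 reached an FPKM of 1, with 13.4 and 4.91, and the median of the 10 genes was 0.344. Guca1a joined them at E18 with 1.88, and the median was 0.659. In Cd73PC the median then stood at 15.8, 45.7, and 76.2 at P2, P5, and P8, and the number of genes at FPKM 10 or more was 6, 7, and 10. In Cd73NC the median was 0.546, 6.47, and 14.1 at these stages. The median over all genes lay between 1.17 and 2.79 in the 8 libraries.

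**Figure D2:**
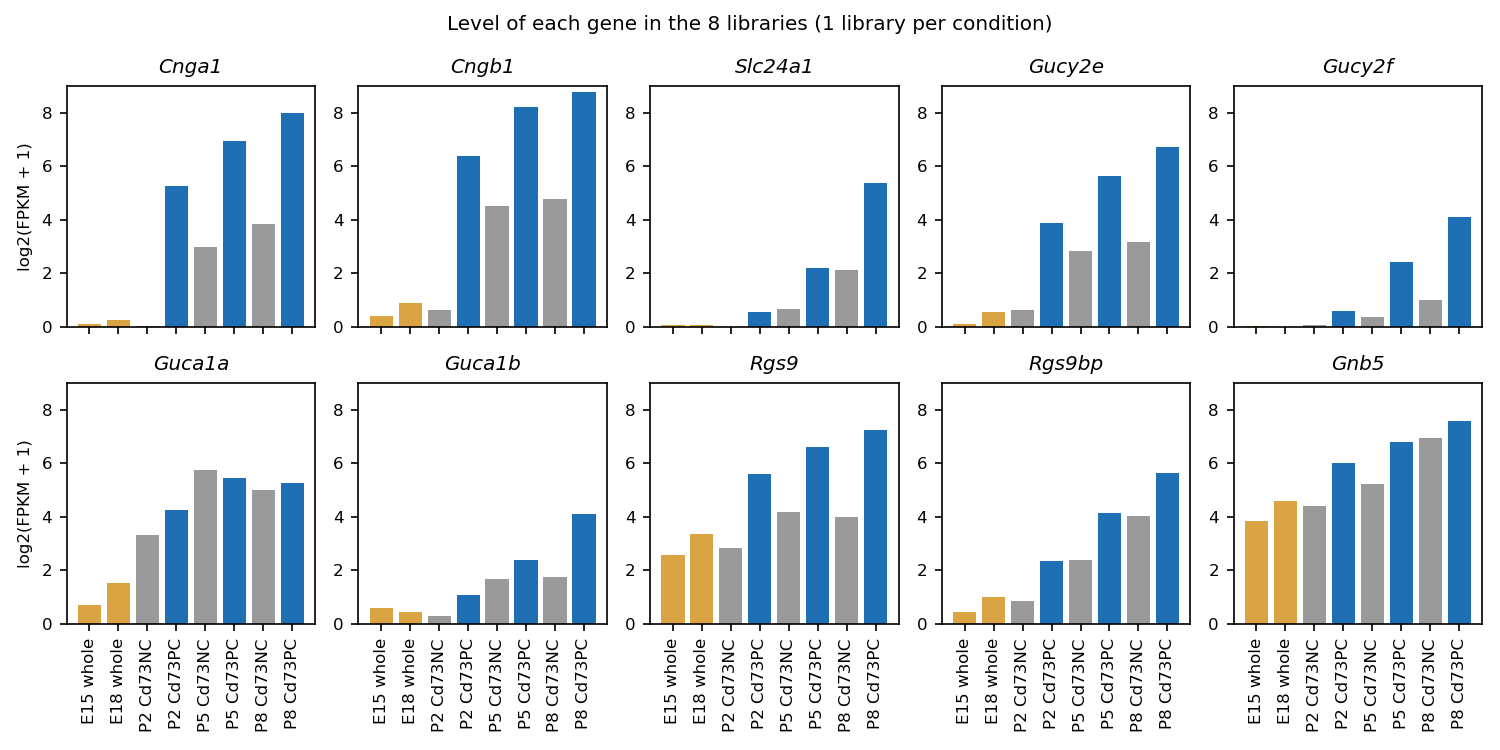
Level of each of the 10 genes as log2(FPKM + 1) in whole retina (yellow), Cd73NC (gray), and Cd73PC (blue), 1 bar per library and no error bars because there are no replicates. Cnga1, Cngb1, and Gucy2e are high in all 3 Cd73PC libraries, Slc24a1 and Gucy2f are low in Cd73PC at P2 and highest at P8, and Guca1a is near the same height in both fractions at P5 and P8.

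To ask which of the genes marked the Cd73PC fraction, log2(FPKM + 1) was compared between the fractions of each stage, and a gene was called past 1.5-fold. At P2, 8 of the 10 genes were higher in Cd73PC, where 8.56% of all genes were and 14.5% of those that reached FPKM 1 in Cd73PC or Cd73NC. At P5, 9 of the 10 were higher, beside 7.02% of all genes and 12.3% of those that reached FPKM 1. At P8, 9 of the 10 were higher as well, beside 7.54% and 13.0%. None of the 10 was lower past 1.5-fold at any stage, where 14.4%, 15.5%, and 18.6% of all genes were. The median difference of the 10 genes was 1.56, 1.92, and 3.17 at P2, P5, and P8 on the log2 scale, beside medians over all genes of 0, 0, and -0.02. Without a pseudocount, which leaves out Slc24a1 at P2, the median was 2.93 at P2 and 2.55 at P5. The 10 other genes of the rod cascade, Gnat1, Pde6b, and Rcvrn among them, were all higher in Cd73PC at each stage, with medians of 3.80, 3.26, and 3.79.

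**Figure D3:**
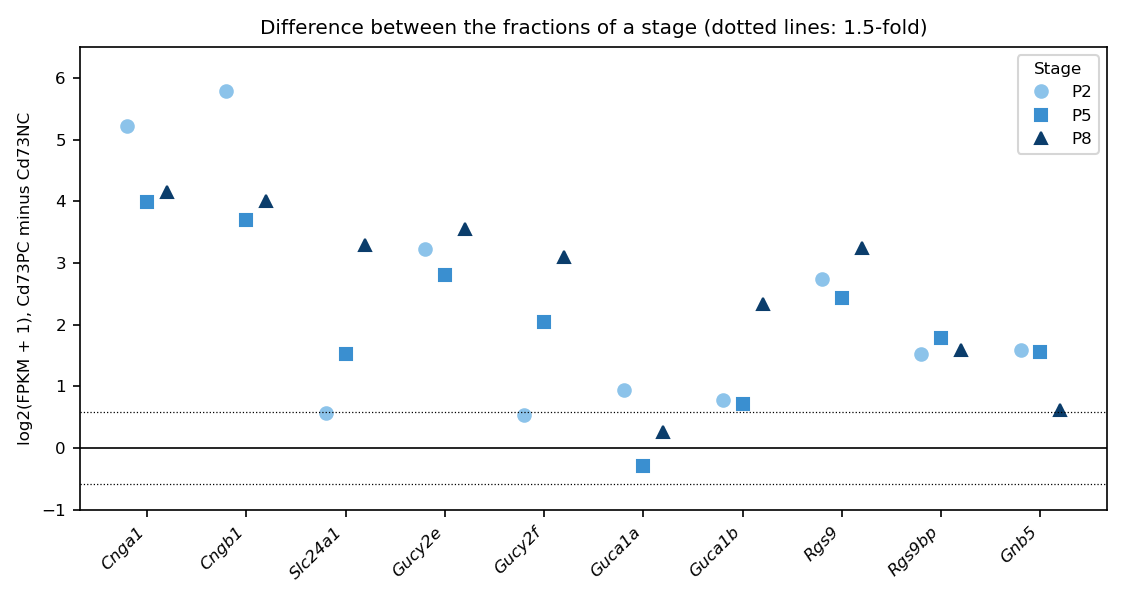
Difference of log2(FPKM + 1), Cd73PC minus Cd73NC, for each gene at P2 (circles), P5 (squares), and P8 (triangles), with dotted lines at 1.5-fold in either direction and each point from 1 library per fraction. Cnga1 and Cngb1 have the greatest differences at every stage, and the P5 value of Guca1a (-0.29) is the only one below 0.

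Cnga1 encodes the pore-forming alpha subunit of the rod channel and lies on chromosome 5 from 72994936 to 73033991 (NCBI37/mm9, minus strand). Its FPKM was 0.0811 at E15, 0.183 at E18, and 0.0206 in Cd73NC at P2, and 37.1 in Cd73PC at P2. At P5 its level reached 6.86 in Cd73NC and 124 in Cd73PC, followed by 13.4 and 253 at P8. Every Cd73PC library was thus above every other library. The difference between fractions was 5.22, 3.99, and 4.14 at P2, P5, and P8 on the log2(FPKM + 1) scale, which ranked 10 of 21817, 2 of 21817, and 3 of 21818 genes. The P2 difference depends on the pseudocount because the Cd73NC level was close to 0, and it was 8.27 with a pseudocount of 0.1.

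Cngb1 encodes the beta subunit, which is also the source of the glutamic acid-rich proteins of the rod outer segment, and it has a row on chromosome 8 and another on chromosome 5. The chromosome 8 row (97762943 to 97830485, minus strand) had an FPKM of 0.162 at E15 and 0.422 at E18, 0.290, 11.6, and 14.0 in Cd73NC at P2, P5, and P8, and 44.3, 156, and 234 in Cd73PC. The chromosome 5 row (143419272 to 143435263) had 0.161 and 0.415 before birth, 0.243, 10.2, and 12.2 in Cd73NC, and 39.2, 140, and 202 in Cd73PC. The ratio of the rows stayed between 0.839 and 0.997 in all 8 libraries.

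All 15992 bases of the chromosome 5 row aligned to chromosome 8 from 97814494 to 97830485, the end of the row at which Cngb1 starts, with 99.994% identity. The annotation (GENCODE M1) names the chromosome 5 copy Gm1977, on the plus strand. Reads from these places cannot be told apart, and a sum of the rows may count the same transcripts more than once, so the level of Cngb1 is uncertain. The summed FPKM was 83.5, 296, and 436 in Cd73PC at P2, P5, and P8, with differences from Cd73NC of 5.78, 3.70, and 4.01. With the higher row alone, which is the chromosome 8 row, the P2 difference was 5.13, and with a pseudocount of 0.1 the summed rows gave 7.05. Either way Cngb1 was called at all 3 stages.

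The FPKM of Cnga1 over that of the chromosome 8 row of Cngb1 was 0.837, 0.790, and 1.08 at P2, P5, and P8 in Cd73PC. The row is not split by transcript and may include those of the glutamic acid-rich proteins. The ratio is therefore not one of alpha to beta subunit alone. The summed rows of Cngb1 (83.5, 296, and 436) were above Cnga1 (37.1, 124, and 253) at each stage. A ratio near 1 thus depends on the row used. At P8 the Cnga1 level of 253 and the chromosome 8 row level of 234 had Cufflinks bounds that overlap (231 to 242 and 228 to 244). The Cnga1 value itself lay above its upper bound. In Cd73NC the ratio to the chromosome 8 row was 0.0711, 0.590, and 0.960, the first from levels below FPKM 0.3. The cone subunits did not share this course. Cnga3 stayed between 1.42 and 4.13 in all 8 libraries and Cngb3 between 1.77 and 16.8, with the highest value of each in Cd73PC at P2. At P8 the Cnga1 level in Cd73PC was 119.7 times that of Cnga3, and at P2 it was 8.98 times.

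Slc24a1 encodes the rod exchanger, which carries calcium out of the outer segment in exchange for sodium, and lies on chromosome 9 from 64770668 to 64799414 (minus strand). Its FPKM was 0.0411 at E15, 0.0396 at E18, and 0 in Cd73NC at P2, and 0.483 in Cd73PC at P2. At P5 it was 0.598 in Cd73NC and 3.60 in Cd73PC, and at P8 it was 3.31 and 41.0. Slc24a1 was thus the lowest of the 10 genes in Cd73PC at P2 and the seventh highest at P8. The difference between fractions was 0.57 at P2, just short of 1.5-fold, and 1.53 and 3.28 at P5 and P8. With a pseudocount of 0.1 the differences were 2.54, 2.41, and 3.59, and after quantile normalization the P2 difference was 0.64, so under both Slc24a1 was past 1.5-fold at P2. Slc24a2, the cone exchanger, stayed between 0.160 and 1.22 in all libraries.

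The channel and the exchanger are bound to each other in the outer segment membrane, and their transcripts differed in course. In Cd73PC, Cnga1 was 76.8 times the level of Slc24a1 at P2, 34.3 times at P5, and 6.18 times at P8. Prph2, Rom1, and Abca4, which encode disc rim proteins of the same compartment, were all higher in Cd73PC past 1.5-fold at each stage. Of all genes, 8.56%, 7.02%, and 7.54% were. The median difference of these 3 genes between fractions was 4.86, 2.74, and 3.45.

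Gucy2e and Gucy2f encode the membrane guanylate cyclases of photoreceptors. Gucy2e, on chromosome 11 from 69031619 to 69050524 (minus strand), had an FPKM of 0.0844 at E15 and 0.481 at E18, 0.559, 6.09, and 8.00 in Cd73NC at P2, P5, and P8, and 13.5, 48.3, and 104 in Cd73PC. Its differences between fractions were 3.22, 2.80, and 3.54, with 4.37 at P2 for a pseudocount of 0.1. Gucy2f, on the X chromosome from 138513832 to 138631479 (minus strand), had 0.0140 at E15 and 0 at E18, 0.0480, 0.288, and 1.03 in Cd73NC, and 0.523, 4.32, and 16.2 in Cd73PC. The differences were 0.54 at P2, short of 1.5-fold, 2.05 at P5, and 3.09 at P8. With a pseudocount of 0.1 they were 2.07, 3.51, and 3.86, and without one 3.45, 3.91, and 3.98. Quantile normalization gave 0.60 at P2, also past the threshold.

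Gucy2e was the higher of the 2 cyclases in every library. The ratio of Gucy2e to Gucy2f in Cd73PC was 25.9, 11.2, and 6.40 at P2, P5, and P8, so the gap was narrower at each later stage. In Cd73NC it was 11.6, 21.1, and 7.80. Gucy2d, a cyclase of olfactory neurons, was listed at 0 in all 8 libraries, and Gucy2g reached at most 0.0709. Rd3, which encodes a protein that binds and inhibits the photoreceptor cyclases and brings them to the outer segment, had an FPKM of 0.916 and 4.14 before birth, 3.67, 25.7, and 31.7 in Cd73NC, and 65.6, 156, and 156 in Cd73PC. The ratio of Rd3 to Gucy2e in Cd73PC was 4.84, 3.24, and 1.5 at P2, P5, and P8, since Gucy2e was higher at P8 than at P5 and Rd3 was not.

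Guca1a and Guca1b encode the guanylate cyclase activating proteins, which sense the fall in calcium. They are neighbours on chromosome 17, from 47531507 to 47537533 on the minus strand and from 47522342 to 47529916 on the plus strand, and point toward each other with 1590 bases between their rows. Guca1b had an FPKM of 0.515 at E15 and 0.361 at E18, 0.214, 2.16, and 2.37 in Cd73NC at P2, P5, and P8, and 1.09, 4.21, and 16.0 in Cd73PC. Its level was higher in Cd73PC at each stage, by 0.78, 0.72, and 2.34 on the log2(FPKM + 1) scale. Without a pseudocount the differences were 2.35, 0.96, and 2.76.

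Guca1a had a pattern of its own within the group. Its FPKM was 0.613 at E15 and 1.88 at E18, 8.96, 52.7, and 31.1 in Cd73NC at P2, P5, and P8, and 18.0, 43.0, and 37.5 in Cd73PC. The highest value of the 8 was thus in Cd73NC at P5. The difference between fractions was 0.93, -0.29, and 0.26 at P2, P5, and P8, and only the first was past 1.5-fold. The Cufflinks bounds of the fractions overlapped at P5 and P8. These signs were the same under all alternatives tried, upper-quartile scaling (-0.17 at P5) and quantile normalization (-0.27) among them. In 5 of the 6 sorted libraries, all but Cd73NC at P2, the FPKM of Guca1a lay above its own upper bound.

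In Cd73PC, the ratio of Guca1a to Guca1b was 16.5, 10.2, and 2.35 at P2, P5, and P8, and in Cd73NC it was 41.9, 24.4, and 13.1. Guca1a is known from cones as well as rods. The 7 cone markers summed to an FPKM of 65.9, 157, and 126 in Cd73NC at P2, P5, and P8 and to 170, 150, and 174 in Cd73PC, and of these Opn1mw was at 0 in Cd73NC at P2. At P5, therefore, the Guca1a level and the cone marker sum were both somewhat higher in Cd73NC. Of the single markers, Opn1sw, the short-wavelength cone opsin, was 99.4 in Cd73NC and 79.6 in Cd73PC, and Gnat2, cone transducin, was 35.3 and 22.3. The cone regulators Thrb and Rxrg were lower in Cd73NC, with 7.28 and 6.31 against 18.5 and 22.6. The part of cone transcripts in the Guca1a values was not tested.

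**Figure D4:**
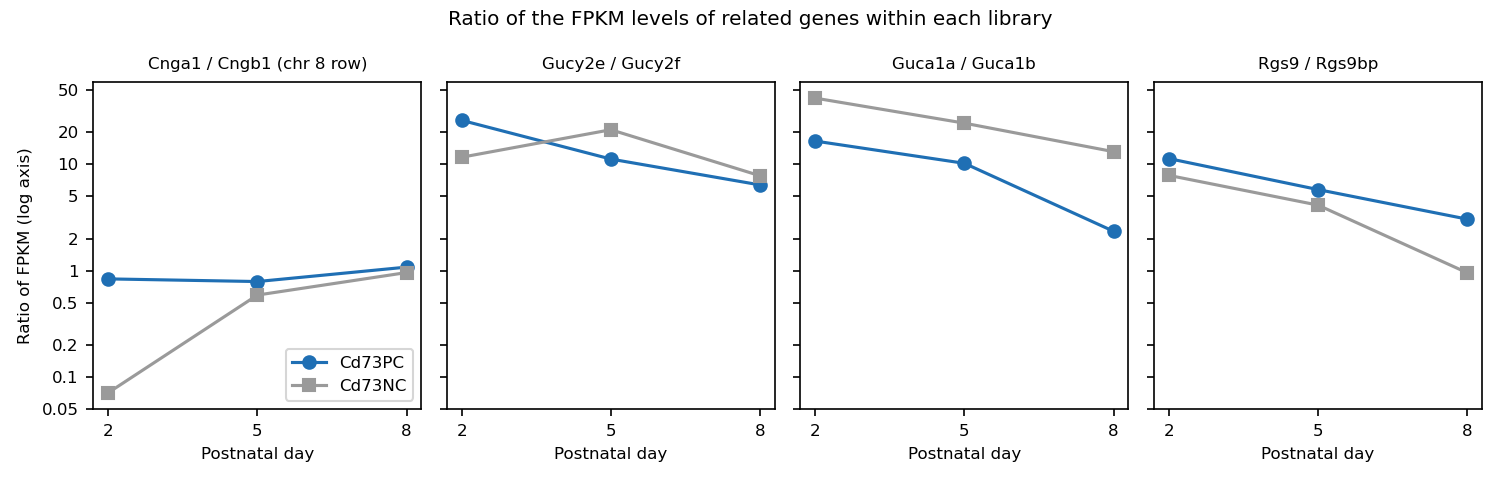
Ratio of the FPKM of related genes within each library at P2, P5, and P8, on a log axis shared by the 4 panels, in Cd73PC (circles) and Cd73NC (squares). The ratio of Cnga1 to the chromosome 8 row of Cngb1 stays near 1 in Cd73PC, and with the summed rows it would be lower. Gucy2e over Gucy2f, Guca1a over Guca1b, and Rgs9 over Rgs9bp are each lower at P8 than at P2.

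Rgs9 is the GTPase-accelerating protein that switches transducin off, and its gene lies on chromosome 11 from 109086669 to 109159495 (minus strand). Its FPKM was 4.91 at E15 and 9.14 at E18, 6.12, 17.1, and 14.7 in Cd73NC at P2, P5, and P8, and 46.8, 97.1, and 148 in Cd73PC. The 3 Cd73PC libraries were above all others. The differences between fractions were 2.75, 2.43, and 3.24. Of the 36-base windows of the Rgs9 transcript, 4.75% also occur in other transcripts, most often in Trim36, and for the other members apart from Cngb1 the share was at most 0.611%. The annotated Cngb1 transcript lies outside the stretch copied on chromosome 5, so this count does not cover the reads that Cngb1 shares with its copy.

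Rgs9bp anchors the complex in the disc membrane, and without it the Rgs9 protein is unstable. The gene, on chromosome 7 from 36364013 to 36370601 (minus strand), has a single exon. Its FPKM was 0.366 at E15 and 0.975 at E18, 0.778, 4.15, and 15.4 in Cd73NC at P2, P5, and P8, and 4.13, 16.8, and 48.5 in Cd73PC. The level was higher in Cd73PC at each stage, by 1.53, 1.79, and 1.59, with 2.27 at P2 for a pseudocount of 0.1. The ratio of Rgs9 to Rgs9bp in Cd73PC was 11.3, 5.79, and 3.05 at P2, P5, and P8. In Cd73NC it was 7.87, 4.13, and 0.957, and the bounds of the genes overlapped in Cd73NC at P8.

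Gnb5 encodes the G protein beta subunit that pairs with Rgs9 in rods and with Rgs6, Rgs7, and Rgs11 in other neurons. It lies on chromosome 9 from 75159202 to 75193478 (plus strand). The FPKM of Gnb5 was 13.4 at E15 and 22.9 at E18, 20.0, 36.6, and 123 in Cd73NC at P2, P5, and P8, and 62.5, 109.7, and 189 in Cd73PC. The Cd73NC library of P8 was thus above the Cd73PC libraries of P2 and P5. The differences between fractions were 1.60 at P2 and 1.56 at P5, and 0.62 at P8, just past 1.5-fold.

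In the Cd73NC fraction, the ratio of Gnb5 to Rgs9 was 3.27, 2.14, and 8.35 at P2, P5, and P8, and in Cd73PC it stayed between 1.13 and 1.33. The other partners were set beside it. Rgs11 had an FPKM of 0.926 in Cd73NC at P5 and 20.0 at P8, and 0.789 and 2.03 in Cd73PC. For Rgs7 the values were 0.392 and 5.01 in Cd73NC and 0.296 and 0.664 in Cd73PC.

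Gpr179, which holds these complexes at the dendrites of ON bipolar cells, had an FPKM of 4.31 in Cd73NC at P5 and 77.4 at P8, and 0.726 and 9.24 in Cd73PC. At P8, 4 of the 6 relatives and partners were lower in Cd73PC past 1.5-fold and 0 were higher, with a median difference of -1.77, where 18.6% of all genes were lower. The bipolar markers moved with them, since their sum in Cd73NC was 457 at P5 and 2206 at P8, with 8 of 8 at FPKM 1 or more at both stages. The part of bipolar cells in the Gnb5 level of Cd73NC was not tested.

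Without a pseudocount, the Cd73NC level was also expressed relative to the Cd73PC level of the same stage. The median over the 10 genes was 11.1%, 17.1%, and 9.01% at P2, P5, and P8, beside 3.82%, 8.92%, and 6.95% for the 10 other rod cascade genes. Nrl had 2.88%, 21.1%, and 7.57%. At P8 there were 6 genes between 5.29% and 9.95%, in order Cnga1, Cngb1, Gucy2f, Gucy2e, Slc24a1, and Rgs9. Guca1b had 14.8%, Rgs9bp 31.7%, Gnb5 65.0%, and Guca1a 82.9%. At P5, when Nrl was also highest in Cd73NC, Cnga1 was at 5.55% and Guca1b at 51.4%. Carried-over rod RNA was not measured separately, and its part in these levels was not tested.

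The time course within the Cd73PC fraction was described next. These comparisons share libraries with each other and with those between fractions. From E18 whole retina to Cd73PC at P2, 9 of the 10 genes were higher past 1.5-fold, all but Slc24a1, beside 8.78% of all genes and 14.7% of those that reached FPKM 1 in either library. This step also changes from whole retina to sorted cells, and stage and sorting cannot be told apart. From P2 to P5, 10 of 10 were higher, beside 3.36% of all genes and 5.92% of those at FPKM 1 or more. From P5 to P8, 8 of 10 were higher, beside 3.31% and 5.94%. None was lower past 1.5-fold in these steps, where 18.3%, 8.57%, and 4.78% of all genes were. The 2 genes not called from P5 to P8 were Cngb1, with 0.56 on the log2(FPKM + 1) scale, and Guca1a, with -0.19.

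The genes differed in how much of their P8 level was already there at P2. In Cd73PC, Slc24a1 was at 1.18% of its P8 level at P2 and at 8.78% at P5. Gucy2f was at 3.22% and 26.6%, Guca1b at 6.82% and 26.3%, and Rgs9bp at 8.53% and 34.6%. These 4 had less than 35% of the P8 level at P5. A middle group held Gucy2e (13.0% at P2 and 46.5% at P5), Cnga1 (14.6% and 48.8%), and Cngb1 (19.1% and 67.8%). Rgs9 was at 31.6% and 65.6%, Gnb5 at 33.0% and 58.0%, and Guca1a at 48.1% and 114.6%. In 3 related pairs one gene was thus further along than its partner at P2, namely Gucy2e before Gucy2f, Guca1a before Guca1b, and Rgs9 before Rgs9bp. The median of the 10 genes at P2 was 13.8% of the P8 level, and that of the 10 other rod cascade genes was 11.6%, with a range from 3.61% to 31.6%.

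**Figure D5:**
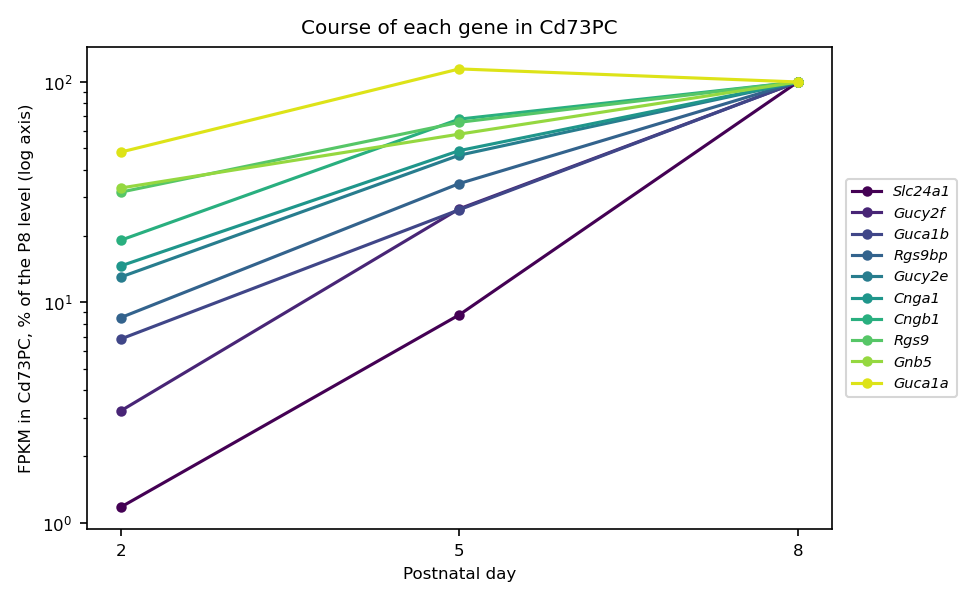
FPKM of each gene in Cd73PC at postnatal days 2, 5, and 8 as a percentage of its own P8 level, on a log axis, 1 library per stage. Slc24a1 is lowest at P2 (1.18%) and P5 (8.78%), and Guca1a is the only gene above 100% at P5 (114.6%).

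At P8 the levels in Cd73PC, from high to low, were those of Cngb1, Cnga1, Gnb5, Rgs9, Gucy2e, Rgs9bp, Slc24a1, Guca1a, Gucy2f, and Guca1b, over a range from 436 to 16.0 FPKM. Cngb1 led only as the sum of its rows, and the chromosome 8 row alone (234) came after Cnga1 (253). The bounds of the last 2 overlapped (15.4 to 16.9 and 13.0 to 16.4), as did those of Cnga1 and the chromosome 8 row of Cngb1. At P2 the order was Cngb1, Gnb5, Rgs9, Cnga1, Guca1a, Gucy2e, Rgs9bp, Guca1b, Gucy2f, and Slc24a1, over a range from 83.5 to 0.483, and the chromosome 8 row of Cngb1 alone (44.3) came after Gnb5 (62.5) and Rgs9 (46.8).

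Other genes of cyclic GMP and calcium handling were counted as a list of 21. At P2, 6 were higher and 5 lower in Cd73PC past 1.5-fold, at P5 4 and 5, and at P8 4 and 8, with medians of -0.02, -0.04, and -0.05. Over all genes, 8.56%, 7.02%, and 7.54% were higher and 14.4%, 15.5%, and 18.6% were lower at these stages. Rd3, Impdh1, Guk1, and Pde6d were higher at all 3 stages. Impdh1, the rate-limiting enzyme of guanine nucleotide synthesis, had an FPKM of 132, 235, and 258 in Cd73PC and 31.8, 79.0, and 48.1 in Cd73NC, and Guk1, guanylate kinase, had 137, 212, and 212 in Cd73PC and 28.0, 53.8, and 89.7 in Cd73NC.

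Among the genes that were lower in Cd73PC, Gucy1a3 and Gucy1b3, the subunits of the soluble, nitric oxide-sensitive cyclase, had an FPKM of 63.3 and 80.2 in Cd73NC at P8 and of 7.47 and 8.27 in Cd73PC. Prkg1, a cyclic GMP-dependent kinase, was at 6.70, 9.17, and 11.2 in Cd73NC and at 2.17, 2.00, and 1.65 in Cd73PC. Npr1, Prkg2, and Gucy2g were not past 1.5-fold at any stage, and all 3 stayed below FPKM 0.4. Among 8 cone cascade genes, 3, 2, and 3 were higher in Cd73PC at P2, P5, and P8 and 0, 1, and 1 were lower, with medians of 0.55, -0.16, and 0.08, beside the same shares of all genes (7.02% to 8.56% higher and 14.4% to 18.6% lower).

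Likeness of pattern was measured by Pearson's r of log2(FPKM + 1) over the 8 libraries, among 8803 genes that reached FPKM 10 in at least 1 library. The libraries share stages and fractions, so r describes these libraries only. Cnga1 was most like Reep6 (r = 0.996), Cngb1 most like Pde6b (r = 0.997), and Gucy2e most like Rdh12 (r = 0.999). Rdh12 had an FPKM of 29.2, 144, and 336 in Cd73PC and 1.35, 12.9, and 20.0 in Cd73NC. For Slc24a1 the nearest gene was Cabp4 (r = 0.988), for Gucy2f Mbnl1 (r = 0.992), and for Guca1b Socs5 (r = 0.988). The nearest to Rgs9bp was Ogdh (r = 0.992), and the nearest to Gnb5 was Slc23a2 (r = 0.994).

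Guca1a was most like Tm2d2 (r = 0.989), which varied only between 37.2 and 71.0 FPKM, so a high r does not mean a like range. The third nearest, Kcne2 (r = 0.978), had an FPKM of 1.61, 13.9, and 11.7 in Cd73NC and 5.93, 10.2, and 12.9 in Cd73PC. Among the 10 genes themselves, r over the 45 pairs ran from 0.576 (Gucy2f and Guca1a) to 0.995 (Cnga1 and Cngb1), with a median of 0.884. Each of the 6 lowest values was between Guca1a and another gene.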

How the data were processed

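RNA sequencing was analysed in 8 libraries, 1 per condition. The authors aligned single-end reads to NCBI37/mm9 with TopHat2 2.0.8b and estimated the deposited FPKM and its lower and upper bounds with Cufflinks 2.1.1 on RefSeq genes, and use of strand is not given in the sources used here. FPKM is divided by transcript length and mapped fragments. A bound covers the estimate within a library only, and in 11 of 88 values of the 10 genes (11 rows in 8 libraries) the FPKM exceeded its upper bound. Absolute depth is unknown. From the steps in weakly expressed rows, depth relative to E18 was between 0.965 and 1.62.

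Tables of 23021 rows were joined by symbol and locus. Small RNAs (787 rows) were left out, rows sharing a symbol (235 symbols) were added up to give 21828 genes, and failed rows (4 to 10 per library) were missing values. Differences were taken as log2(FPKM + 1), which understates the change of low genes, and called past 1.5-fold, without a test. Promoters came from a RefSeq table (GRCm38.p6) and loci from GENCODE M1, and the Cngb1 rows were aligned with blastn 2.17.0. All 10 genes were named in all libraries, with Nt5e, partners and paralogs from lists written by hand, and the nearest of the 3 genes outside the group with the highest r for each (for Guca1a also the third, while that of Rgs9 is not reported here). Cabp5, Isl1, Trpm1, Gngt1, Gpr179, Guk1, Pde6d, Gucy1a3, Gucy1b3, Gucy2g, Prkg1, Opn1sw, Gnat2, Thrb, Rxrg, Npr1, Prkg2, Nr2e3, Slc6a9, Gad1, Gad2, Ptf1a, Cdh5, and Kdr were named from these lists after their values were seen. The members and lists were chosen with earlier results of these data known. Of the 6 amacrine markers, 4 were matched, and they summed to 12.3 to 49.9 in Cd73NC and 51.2 to 73.8 in Cd73PC. Slc6a9 alone gave 47.9, 72.3, and 50.7 of the Cd73PC sums at P2, P5, and P8, while Gad1, Gad2, and Ptf1a had lower values in Cd73PC at each stage (3, 2, and 1 of them past 1.5-fold). Progenitor markers (6 genes) summed to between 86.2 and 1573 in Cd73NC and 16.4 and 390 in Cd73PC. Microglia markers (5) summed to between 3.49 and 67.3 in Cd73NC and between 18.9 and 53.1 in Cd73PC. Endothelium markers (5) summed to between 72.5 and 169 in Cd73NC and between 12.8 and 35.5 in Cd73PC. These sums were mostly Kdr, with 139, 143, and 67.5 in Cd73NC, while Cdh5 was higher in Cd73PC at P5 by 0.68 on the log2 scale. The 4 general photoreceptor markers summed to between 502 and 1420 in Cd73NC and between 1616 and 2485 in Cd73PC. Of these, 4, 2, and 3 were higher in Cd73PC past 1.5-fold at P2, P5, and P8. Otx2 was lower there at P5 and P8, by -0.79 and -0.64, and was also named after its values were seen. The alternatives were other pseudocounts, a filter on low values, upper-quartile scaling, quantile normalization, the highest row of a symbol, small RNAs kept, a 2-fold threshold, and non-overlapping bounds. The code was tested on simulated data. Python 3.11.15, numpy 2.4.6, pandas 2.3.3, and matplotlib 3.10.9 were used.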

Additional observations from a re-analysis of the deposited data

Results flagged for a closer look

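Guca1a, which encodes a guanylate cyclase activating protein, was singled out because the sign of its difference between fractions changed with stage. On the log2(FPKM + 1) scale, Cd73PC minus Cd73NC gave 0.93, -0.29, and 0.26 at P2, P5, and P8. There is 1 library per fraction behind each difference, and the change between stages was not tested. The Cufflinks bounds of the fractions overlapped at P5 and P8. In both fractions at these stages, however, the FPKM of Guca1a lay above its own upper bound, so the overlap does not describe the values compared. The negative value rests on the P5 libraries of both fractions. In Cd73NC at P5, Nt5e was at 24.0% of its Cd73PC level, and the bearing of this on Guca1a was not tested. The other 9 genes were higher in Cd73PC at all 3 stages, although Slc24a1 and Gucy2f were not past 1.5-fold at P2.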

How the results depend on the processing

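According to the paper, both fractions of a stage were purified from the same retinas. Each difference between fractions thus lies within 1 pair of libraries, and no paired test was run. Because each condition has 1 library, no replicate could be left out. The counts of genes past 1.5-fold stayed within 1.5 times the reported count in all 6 comparisons under all 9 alternatives. Of the medians, that of P2 (1.56) was 2.41 with a pseudocount of 0.1 and 2.93 without one, and that of P5 (1.92) was 2.55 without one. Removing the added 1 by construction enlarges the differences of low genes. No alternative reversed the sign of a gene called between fractions. Of 209 values of single genes under the alternatives, 20 moved by more than 1.5-fold, 19 of them with a lower pseudocount, and the other was Cngb1 at P2 with its higher row alone. A pseudocount of 0.1 or quantile normalization brought all 10 genes past 1.5-fold at P2 in place of 8. The share of all genes rose as well, from 8.56% to 13.6% with that pseudocount and to 10.2% after quantile normalization. Depth limits the levels below FPKM 1, among them those of Slc24a1 and Gucy2f at P2 and, before birth, of the 10 genes other than Gnb5, Rgs9, and, at E18, Guca1a.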
